A study of Mus musculus with 12 samples.

Results

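The 8 genes described here encode the enzymes that turn propionyl-CoA into succinyl-CoA in mitochondria, together with the proteins that prepare the vitamin B12 cofactor for them. They were taken by symbol from the gene annotation (Pcca, Pccb, Mcee, Mmut, Mmaa, Mmab, Mmachc and Mmadhc) and not by any measured value, and they are 8 of the 26921 genes in the table of read counts. All 8 were among the 11225 genes expressed highly enough to be tested, with between 765 and 5699 counts per library. Left ventricles were sampled at 16 weeks of age and their RNA sequenced, with 6 libraries from WT mice and 6 from cmGch1 KO mice, each library being an animal. WT mice were Gch1 fl/fl, with exons of Gch1 flanked by LoxP sites. The cmGch1 KO mice were Gch1 fl/fl littermates that also carried, on 1 allele, a transgene that expresses Cre recombinase from the cardiomyocyte promoter of α-MHC, so other cells of the ventricle kept Gch1. Gch1 encodes GTP cyclohydrolase, which starts the synthesis of tetrahydrobiopterin. None of the 12 libraries came from a mouse with Cre and intact Gch1, so the effect of Cre and that of the deletion cannot be told apart here. The comparison of genotypes asked how loss of tetrahydrobiopterin synthesis in cardiomyocytes altered cardiac gene expression.

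Propionyl-CoA is the end product of valine and isoleucine breakdown and of the oxidation of fatty acids with an odd number of carbons. Propionyl-CoA carboxylase, built from the biotin-carrying alpha subunit Pcca and the beta subunit Pccb, makes methylmalonyl-CoA, the epimerase Mcee converts this to its mirror form, and the mutase Mmut, which needs adenosylcobalamin, rearranges it to succinyl-CoA, an intermediate of the TCA cycle. Cobalamin (vitamin B12) is stripped of its upper ligand by Mmachc in the cytosol, directed to the cytosolic or mitochondrial branch with Mmadhc, given its adenosyl group by Mmab and guarded at the mutase by the GTPase Mmaa. In people, inherited loss of these genes causes propionic or methylmalonic acidaemia, and heart muscle disease is a known complication of the former.

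The targeted gene was checked first. Gch1 had 10.7 ± 0.974 (mean ± SD, n = 6) in WT and 5.48 ± 0.855 cpm in cmGch1 KO libraries, where cpm are counts scaled to a common library size with edgeR's TMM factors. The groups did not overlap (log2 fold change -0.96, SE 0.11, edgeR quasi-likelihood test with Benjamini-Hochberg adjustment, adjusted p = 6.88e-04). Library totals ran from 19921398 to 37917806 counts. The cmGch1 KO libraries numbered 2 and 3 stood apart, with Xist at 86.7 and 99.0 cpm and no counts of 4 Y-linked genes. The other 10 libraries, all 6 of WT among them, had at most 0.234 cpm of Xist. Their Y-linked genes summed to 167 to 192 cpm. Sex-linked expression was thus unbalanced between genotypes, and genotype is partly confounded with it. The labels give no sex. Mitochondrial transcripts held 14.9% and 16.1% of counts in cmGch1 KO replicates 2 and 3 and 18.3% to 22.9% in the others. Counts of called genes and of members are therefore also given without these 2 libraries.

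The carboxylase and the adenosyltransferase had the lowest cmGch1 KO values relative to WT, and no member passed the threshold across all genes. In cmGch1 KO hearts Pcca stood at 83.4%, Pccb at 83.1% and Mmab at 87.6% of the WT level. At an FDR of 0.05, edgeR's quasi-likelihood test called 0 of the 8 members in either direction. Of all tested genes it called 0.445% lower and 0.677% higher. DESeq2's Wald test called 2 of the 8 members lower (Pcca and Pccb). That test also called more genes across the whole table, 155 lower and 218 higher of 11222, where edgeR called 50 and 76 of 11225. At an unadjusted p under 0.05, 3 members were lower (Pcca, Pccb and Mmab) and 0 higher, beside 4.51% and 7.01% of all tested genes. The log2 fold change was below 0 for 7 members, beside 53.3% of tested genes, with a median of -0.15 against -0.01 over all tested genes. When libraries were scaled by total counts alone, 6 members were below 0, with a median of -0.07 against 0.07 over all tested genes. Pcca and Pccb also belong to the list of fatty acid metabolism genes that the study chose on these samples. The study drew that list from genes it called with its own edgeR fit at an FDR of 0.05, so it called both. Their direction here is not independent evidence of that list's. Without cmGch1 KO replicates 2 and 3, the same 3 members were lower at an unadjusted p under 0.05, 0 were called and all 8 were below 0. That fit called 18 genes lower and 20 higher of 11297 tested, and the median over all tested genes was 0.002.

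**Figure D1:**
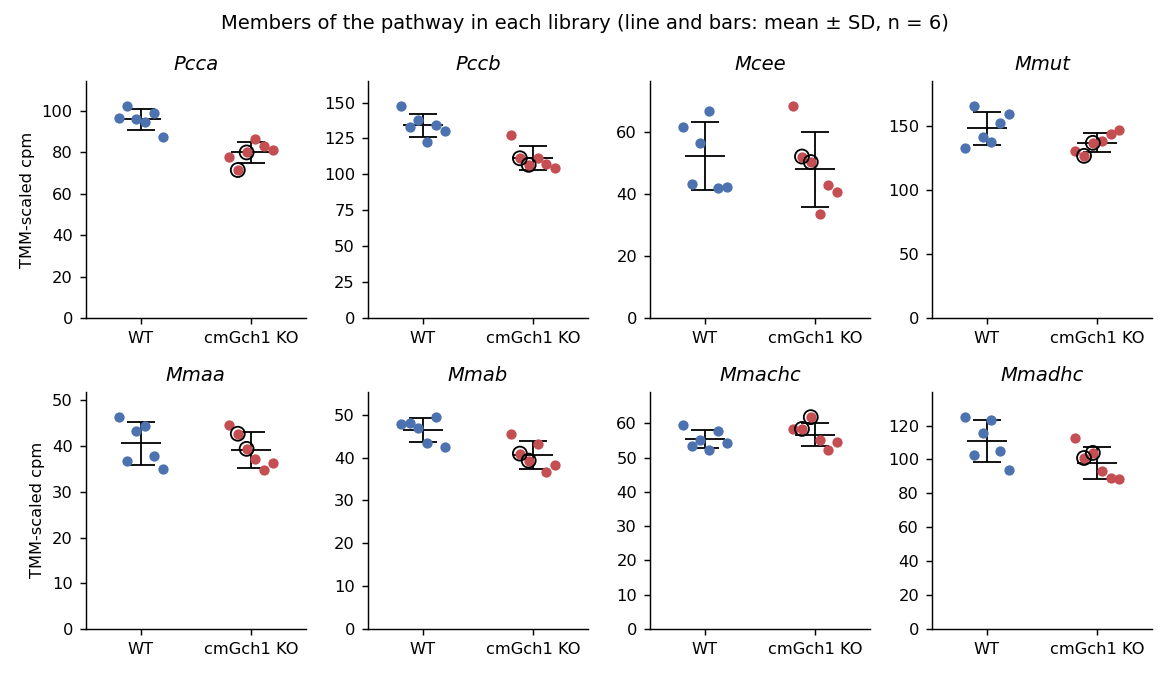
TMM-scaled cpm of each member in the 6 WT (blue) and 6 cmGch1 KO (red) libraries, with the line and bars giving mean ± SD and black circles marking cmGch1 KO replicates 2 and 3. For Pcca all red points, from 71.5 to 86.3 cpm, lie below all blue points, from 87.4 to 102 cpm, while the other panels overlap.

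Pcca, the subunit that carries biotin and carries out the first carboxylation step on it (chr14:122534324-122891100, plus strand, GRCm38), separated the genotypes. Its lowest, median and highest values were 87.4, 96.4 and 102 in WT and 71.5, 80.7 and 86.3 cpm in cmGch1 KO libraries. The groups did not overlap, a pattern of lower values found in 0.802% of tested genes, with 1.07% separated the other way. The means were 96.1 ± 5.02 and 80.1 ± 5.06 cpm (n = 6 each, SD), which gave a log2 fold change of -0.26 (SE 0.061, 95% interval -0.39 to -0.13). By edgeR's quasi-likelihood test the unadjusted p was 7.27e-04 and the adjusted p 0.0611, and the two-sided exact permutation test gave p = 0.00216, the smallest that 6 against 6 libraries can give. Exons of Ggact share 241 bases with those of Pcca on the other strand. Ggact had 11.4 and 10.8 cpm in WT and cmGch1 KO libraries, and whether counting used the strand is not given in the sources used here. Of 12 fits that each left out 1 library, 1 called Pcca. That fit left out WT replicate 6, the lowest WT library (log2 fold change -0.29, edgeR adjusted p = 0.0461). The edgeR adjusted p reached 0.148 in the others. It was 0.269 with a covariate of sex-linked expression and 0.310 without cmGch1 KO replicates 2 and 3. Of the 10 remaining settings, 2 called Pcca.

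Pccb, which holds the carboxyltransferase site of the enzyme (chr9:100982032-101034898, minus strand), had nearly the same fold change. Its lowest, median and highest values were 123, 134 and 147 in WT and 104, 109 and 127 cpm in cmGch1 KO libraries. Of the cmGch1 KO libraries 5 of 6 lay below the lowest WT library, and replicate 1, at 127 cpm, lay inside the WT range. The means were 134 ± 8.15 and 111 ± 8.34 cpm (n = 6 each; log2 fold change -0.27, SE 0.065, 95% interval -0.41 to -0.13). EdgeR's quasi-likelihood test gave an unadjusted p of 0.00103 and an adjusted p of 0.0711, and the exact permutation test, two-sided, gave p = 0.00433. Of 12 fits that each left out 1 library, 1 called Pccb. That fit left out cmGch1 KO replicate 1 (log2 fold change -0.31, edgeR adjusted p = 0.0146). The edgeR adjusted p reached 0.172 in the others. It was 0.276 with a covariate of sex-linked expression and 0.319 without cmGch1 KO replicates 2 and 3. Of the 10 remaining settings, 3 called Pccb.

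The ratio of the subunits differed by less than its spread between libraries. Pcca counts over Pccb counts gave a log2 ratio of -0.48 ± 0.098 in WT and -0.48 ± 0.16 in cmGch1 KO libraries (SD, n = 6), a difference of 0.01 (exact permutation test, two-sided, p = 0.939). Among animals of 1 genotype no correlation of the subunits was detected. With each genotype's mean removed, Pearson's r was -0.03 and Spearman's rho -0.02 over the 12 libraries (permutation p = 0.919 and 0.956 with 100000 resamples, 0.919 and 0.956 after Benjamini-Hochberg adjustment over 3 pairs). Without the 2 libraries farthest from the median of Pcca, r was -0.23, and it was 0.29 within WT and -0.26 within cmGch1 KO (n = 6 each).

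The stretches of DNA just before the starts of the members lower at an unadjusted p under 0.05 are shown because these are the genes the comparison turns on. RefSeq promoter windows (GRCm38.p6) were used for 6 of the 8 members, and those of Mmut and Mmadhc were not analysed here. Each stretch is given 5′ to 3′ on the strand of the gene, with matches to the GC box GGGCGG, the CCAAT box CCAAT or the binding motif of NRF1 on either strand in capitals. The Pcca stretch is chr14:122534078-122534323, plus strand, the Pccb stretch chr9:101034899-101035134, minus strand, and the Mmab stretch chr5:114444061-114444268, minus strand.
Pcca: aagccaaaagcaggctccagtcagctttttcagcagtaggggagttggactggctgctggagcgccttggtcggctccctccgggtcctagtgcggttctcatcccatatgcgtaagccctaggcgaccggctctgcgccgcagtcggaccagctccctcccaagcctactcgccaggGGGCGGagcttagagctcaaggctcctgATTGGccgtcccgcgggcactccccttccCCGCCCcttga
Pccb: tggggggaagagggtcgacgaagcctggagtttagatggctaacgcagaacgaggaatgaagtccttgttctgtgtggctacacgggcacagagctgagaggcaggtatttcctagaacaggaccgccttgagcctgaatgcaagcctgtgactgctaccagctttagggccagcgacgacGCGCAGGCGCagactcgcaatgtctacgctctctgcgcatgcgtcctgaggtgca
Mmab: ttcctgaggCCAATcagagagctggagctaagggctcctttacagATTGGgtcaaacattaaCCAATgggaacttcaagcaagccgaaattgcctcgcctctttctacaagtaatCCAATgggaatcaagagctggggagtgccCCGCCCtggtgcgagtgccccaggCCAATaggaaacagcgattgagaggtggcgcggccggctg
Within 250 bases before the start, Pcca had 2 GC boxes and 1 CCAAT box, Pccb had 1 NRF1 motif and neither box, and Mmab had 5 CCAAT boxes and 2 GC boxes, 1 of which lies past the stretch shown. The 3 genes shared no motif among the 8 searched, and no matches in a window overlapped each other. Of 32817 RefSeq windows, 32.7% held the GC box, 33.8% the CCAAT box and 3.73% the NRF1 motif. The element AAGGTCA, to which estrogen-related receptors bind, was found in 4.08% of all windows and in 0 of the 6 members' windows. The ETS core CCGGAAG (6.9% of windows), the E-box CACGTG (6.02%) and the cyclic AMP response element TGACGTCA (1.55%) were likewise found in 0 of 6. A match describes the letters only, and its absence covers only this window.

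Mmab, the adenosyltransferase that makes the mutase's cofactor (chr5:114431034-114444060, minus strand), was the third member lower at an unadjusted p under 0.05. Its lowest, median and highest values were 42.6, 47.4 and 49.4 in WT and 36.6, 40.1 and 45.5 cpm in cmGch1 KO libraries. The groups overlapped, with 4 of 6 cmGch1 KO libraries below the WT range. The means were 46.4 ± 2.76 and 40.6 ± 3.28 cpm (n = 6 each; log2 fold change -0.19, SE 0.069, 95% interval -0.34 to -0.04), with an unadjusted p of 0.0151 and an adjusted p of 0.259 by edgeR's quasi-likelihood test. The exact permutation test, two-sided, gave p = 0.0130. Mmab starts 209 bases from Mvk, the mevalonate kinase gene, which is read in the opposite direction. Mvk had 8.02 ± 1.85 in WT and 7.78 ± 1.56 cpm in cmGch1 KO libraries (log2 fold change -0.05, 95% interval -0.40 to 0.30, edgeR adjusted p = 0.959).

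Mmut, the mutase (chr17:40934685-40961988, plus strand), had the highest mean cpm of the 8. Its lowest, median and highest values were 133, 147 and 165 in WT and 127, 137 and 147 cpm in cmGch1 KO libraries. All 6 cmGch1 KO libraries were under the WT median, and 2 of them were below the WT range. The means were 148 ± 12.7 and 137 ± 7.58 cpm (n = 6 each; log2 fold change -0.11, SE 0.068, 95% interval -0.26 to 0.03, edgeR adjusted p = 0.597), which did not exceed the spread between libraries. Cenpq, a centromere protein gene that starts 362 bases away and shares 95 exon bases on the other strand, had 8.08 and 7.57 cpm (log2 fold change -0.09, edgeR adjusted p = 0.892). Set against the carboxylase within each library, the log2 ratio of Mmut to Pcca was 0.62 ± 0.14 in WT and 0.78 ± 0.061 in cmGch1 KO, a difference of 0.15 (exact permutation test, two-sided, p = 0.0411, 0.123 after Benjamini-Hochberg adjustment over the 6 ratios tested). That unadjusted p was 0.0563 or more without any single library other than WT replicates 2 and 6 and cmGch1 KO replicate 4. The ratio of Mmut to Pccb differed by 0.16 (exact permutation test, p = 0.128, adjusted 0.255), and by 0.21 without cmGch1 KO replicate 1 (p = 0.0368 by the same test).

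Mcee, the epimerase (chr7:64392607-64412125, plus strand), varied most between animals in proportion to its mean. It had 42.0, 49.8 and 66.7 (lowest, median, highest) in WT and 33.5, 46.4 and 68.1 cpm in cmGch1 KO libraries, with 2 of the 6 cmGch1 KO libraries below the WT range and 1 above it. The means were 52.01 ± 10.9 and 47.9 ± 11.96 cpm (n = 6 each), with a log2 fold change of -0.12 and a 95% interval of -0.48 to 0.24 (edgeR adjusted p = 0.877). A change as large as that of the carboxylase lies inside this interval, and the log2 fold change was -0.25 without cmGch1 KO replicate 1 and -0.04 without either WT replicate 4 or cmGch1 KO replicate 4. Mcee starts 339 bases from Mphosph10, a gene of ribosome assembly read the other way, which had a log2 fold change of 0.10 (edgeR adjusted p = 0.687).

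Mmaa, the GTPase that loads the mutase and protects it (chr8:79263598-79294937, minus strand), had 40.6 ± 4.71 in WT and 39.2 ± 3.86 cpm in cmGch1 KO libraries (n = 6 each). The values ran from 34.9 to 46.4 and from 34.7 to 44.6 cpm. Its log2 fold change was -0.05 (95% interval -0.24 to 0.14, edgeR adjusted p = 0.908) and became 0.02 when libraries were scaled by total counts alone. Gm4890, which starts 186 bases away in the other direction, was too low to be tested. The ratio of Mmaa to Mmut differed by 0.06 and that of Mmab to Mmut by -0.08 on the log2 scale (exact permutation tests, two-sided, p = 0.682 and 0.39, adjusted 0.818 and 0.584).

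The cytosolic pair that hands cobalamin on had log2 fold changes on either side of 0. Mmachc (chr4:116702279-116708406, minus strand) had 55.4 ± 2.74 in WT and 56.7 ± 3.44 cpm in cmGch1 KO libraries (n = 6 each; log2 fold change 0.03, 95% interval -0.10 to 0.17, edgeR adjusted p = 0.914), and this turned to -0.01 without cmGch1 KO replicates 2 and 3. Mmadhc (chr2:50279881-50296801, minus strand) had 93.8, 110 and 125 (lowest, median, highest) in WT and 88.6, 96.9 and 113 cpm in cmGch1 KO libraries, with 3 of 6 below the WT range. Its log2 fold change was -0.18 (SE 0.086, 95% interval -0.36 to 0.01, edgeR adjusted p = 0.46). The log2 ratio of Mmachc to Mmadhc was -0.99 ± 0.17 in WT and -0.79 ± 0.088 in the cmGch1 KO group, a difference of 0.21 (exact permutation test, two-sided, p = 0.026, 0.123 after adjustment over the 6 ratios, and unadjusted 0.0563 without cmGch1 KO replicate 6). Among animals of 1 genotype these genes had r = 0.49 and rho = 0.51 (12 libraries, permutation p = 0.106 and 0.094, adjusted over 3 pairs 0.159 and 0.141), and r = 0.31 without the 2 libraries farthest from the median of Mmachc. Within WT r was 0.20 and within cmGch1 KO it was 0.79 (n = 6 each), a difference that was not tested.

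Mmachc is the member with a well-described regulator, the complex of Hcfc1 with Thap11 and Zfp143, whose site lies in 1.66% of all windows. Of the 6 members' windows, only that of Mmachc held it, on the reverse strand. The stretch around it, chr4:116708389-116708418, minus strand, is shown with the site in capitals.
Mmachc: ttacttcttGGGAAATGTAGTccagccctg
The 3 genes of that complex had log2 fold changes of -0.06 (Hcfc1), 0.02 (Thap11) and 0.01 (Zfp143), with edgeR adjusted p of 0.929, 0.969 and 0.994. Ccdc163, which starts 103 bases from Mmachc and is read the other way, had 3.65 and 3.24 cpm (log2 fold change -0.17, edgeR adjusted p = 0.822).

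**Figure D2:**
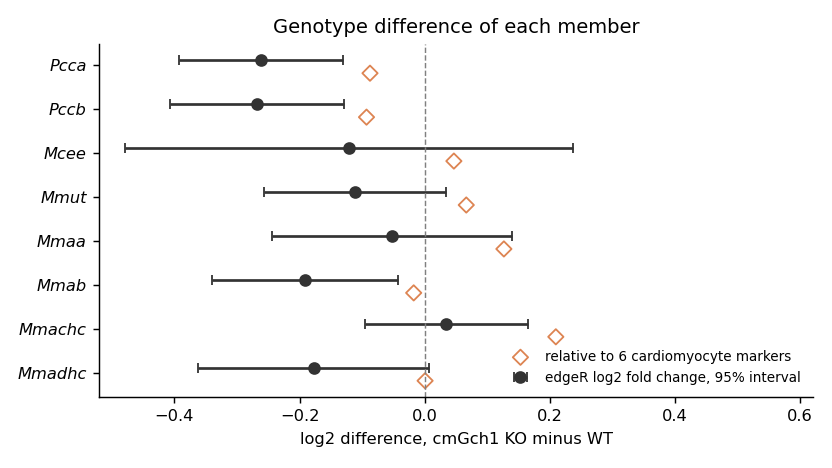
Log2 difference of each member, cmGch1 KO minus WT (x axis), as the edgeR log2 fold change with its 95% interval (black) and relative to the mean log2 cpm of 6 cardiomyocyte markers in the same library (orange diamonds, no interval drawn). The black intervals of Pcca, Pccb and Mmab exclude 0, and relative to the markers Pcca and Pccb move from -0.26 and -0.27 to -0.09. Subtracting the markers shifts every member up by about the same amount.

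The level of cardiomyocyte transcripts moved with genotype beside the members. The summed cpm of 6 cardiomyocyte markers (Myh6, Tnnt2, Tnni3, Actn2, Myl2 and Ryr2) lay between 41827 and 46583 in WT and between 36455 and 43278 in the cmGch1 KO group (two-sided exact permutation test, p = 0.00866, 0.0346 after adjustment over 8 marker lists). All 6 markers had log2 fold changes below 0, and 0 of them had an unadjusted p under 0.05 by edgeR. The 4 macrophage markers summed to 76.9 to 95.8 in WT and 95.6 to 116 cpm in cmGch1 KO libraries (exact permutation test, p = 0.00433, adjusted 0.0346), with all 4 above 0 at an unadjusted p under 0.05 by edgeR and 0 called. Sums for endothelial, fibroblast, mural, atrial and erythroid markers had permutation p-values of 0.141 or more, and the 2 adipocyte markers together reached at most 2.22 cpm. Of the 4 mural markers 2 were below 0, 2 above it and 1 was called by edgeR. All 5 fibroblast markers were above 0 and 0 were called. In bulk tissue, fewer cells of a type and less RNA per cell cannot be told apart.

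Relative to the cardiomyocyte markers, a scale chosen after seeing these data, the differences of the carboxylase were smaller. The mean log2 cpm of the markers itself differed by -0.18 between genotypes. Subtracting it raised every member by about the same amount, so any gene with a value below 0 moved up. Pcca differed by -0.09 and Pccb by -0.09 on the log2 scale, against -0.26 and -0.27 on the scale of all counts (exact permutation tests, two-sided, p = 0.121 and 0.232). Mmab differed by -0.02 and Mmadhc by 0.00 (p = 0.825 and 0.998 by the same exact test). Mmut differed by 0.07, Mcee by 0.05 and Mmaa by 0.13 (exact permutation p = 0.203, 0.823 and 0.26). Mmachc differed by 0.21 (exact permutation p = 0.0152), and by 0.16 without cmGch1 KO replicates 2 and 3 (p = 0.0524 by the same test). The part of the marker level in the members' differences was not tested.

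Levels of different members can be compared only per length of transcript. Divided by the length of the annotated exons, WT levels were 55.1 ± 6.18 cpm per kb for Mmadhc, 54.4 ± 11.4 for Mcee, 48.4 ± 2.94 for Pccb and 39.1 ± 3.36 for Mmut (SD, n = 6). They were 24.9 ± 1.23 cpm per kb for Mmachc, 18.4 ± 0.964 for Pcca, 12.6 ± 0.753 for Mmab and 6.74 ± 0.781 for Mmaa. The 4 lower members kept this order in all 12 libraries, whereas Mmadhc exceeded Mcee in 5, Mcee exceeded Pccb in 8 and Pccb exceeded Mmut in 11 of 12. The mutase transcript was therefore present at several times the level of its chaperone Mmaa and of the adenosyltransferase. The place of Pcca depends on the length used: its annotated exons cover 5210 bases, its longest transcript only 2592, and with the latter Pcca stood at 37.1 cpm per kb in WT, above Mmachc at 26.3.

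**Figure D3:**
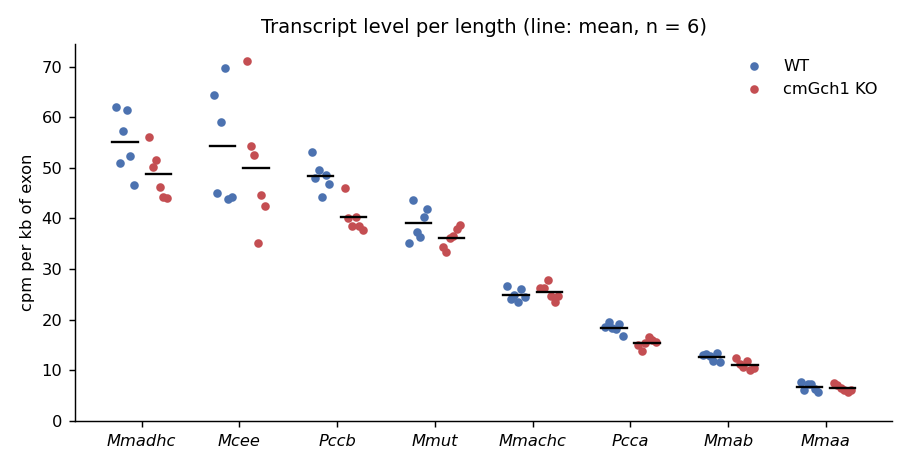
Level of each member in cpm per kb of annotated exon (y axis, from 0), in order of the WT mean, with each point a library, WT in blue and cmGch1 KO in red, and lines at the means (n = 6). Mmadhc, Mcee and Pccb overlap near the top, and Mmaa is lowest in every library.

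Of the 3 partner pairs tested, Mmut with Mmaa varied together, in opposite directions. With genotype means removed, Mmut and Mmaa ran against each other across the 12 libraries (Pearson's r = -0.93, Spearman's rho = -0.94, permutation p = 7.0e-05 and 3.0e-05 with 100000 resamples, adjusted over 3 pairs 2.1e-04 and 9.0e-05). The relation held in WT (r = -0.95, n = 6) and in cmGch1 KO libraries (r = -0.91, n = 6). It was -0.95 without WT replicates 1 and 2, the libraries farthest from the median of Mmut, and -0.93 without cmGch1 KO replicates 2 and 3. The size of these swings was modest, from 133 cpm in WT replicate 1 to 165 cpm in WT replicate 2 for Mmut, while Mmaa stood at 46.4 and 36.7 cpm in the same libraries.

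Mmadhc and Mcee varied along the same axis. Mmaa went with Mmadhc (r = 0.96) and Mcee (r = 0.87), and Mmut ran against Mmadhc (r = -0.86) and Mcee (r = -0.76), as descriptions over the same 12 libraries. Pccb went with Mmab (r = 0.78), and of the 28 pairs 17 had a positive r. Many other genes lay along this axis. Across genes, 32.8% of the other 11224 tested genes had an r with Mmut beyond 0.7 in either direction, 39.8% had one with Mmaa, but only 1.23% with Pcca and 7.76% with Pccb. The main component of all genotype-centred expression values, which held 37.9% of the variance, had an r of 0.90 with Mmut, -0.98 with Mmaa, -0.97 with Mmadhc and -0.91 with Mcee, but 0.31 with Pcca and -0.57 with Pccb. Its r was 0.12 with the library totals and 0.48 with the mitochondrial share of counts, whose part in the pattern was not tested.

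**Figure D4:**
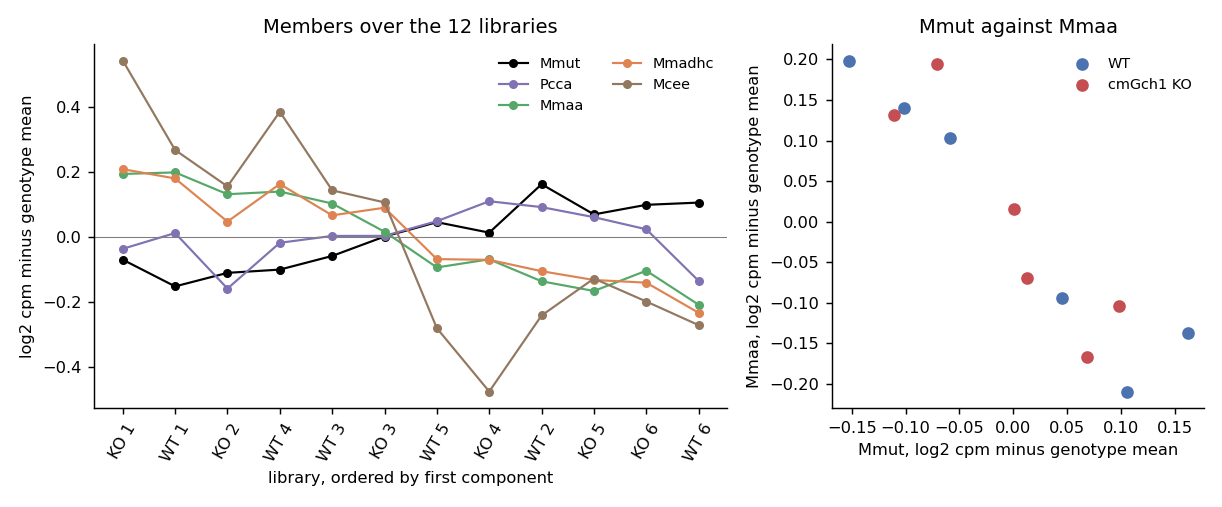
Left, log2 cpm minus the genotype mean for 5 members (y axis) in the 12 libraries, ordered by the main component of all genes. Right, the same values of Mmaa (y axis) against Mmut (x axis) by library, with r = -0.93: Mmut is low where Mmaa, Mmadhc and Mcee are high, and Pcca does not follow the order.

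Of the other 11224 tested genes, 264 (2.35%) had an r above 0.9 with Mmut and 3 (0.0267%) with Pcca. The genes most alike to Mmut over these libraries were Insr (the insulin receptor, r = 0.98), Mga (r = 0.98) and Elk4 (r = 0.97). For Pcca they were Tmem209 (r = 0.91), Tbcel (r = 0.90) and Acsl3 (r = 0.90), and for Pccb they were Cdyl, Ak1 and Cpped1 (r = 0.90, 0.90 and 0.89). None of these 9 genes differed between genotypes past the threshold (edgeR adjusted p from 0.459 to 0.96).

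Upstream of the carboxylase, the genes that break valine and isoleucine down to propionyl-CoA all had lower means in cmGch1 KO hearts. Of 13 genes tested, 13 were below 0, 1 was called lower and 6 had an unadjusted p under 0.05, beside 53.3%, 0.445% and 4.51% of all tested genes, and their median log2 fold change was -0.16. Without cmGch1 KO replicate 1 the median was -0.25 and 9 genes had an unadjusted p under 0.05. That fit also called more genes lower over all tested genes, 98 against 50. Without cmGch1 KO replicates 2 and 3 the median of the list was -0.13, with 5 genes at that threshold. Under scaling by total counts alone it was -0.08, beside 0.07 over all tested genes, with 4 genes at that threshold. The called gene of this list was Bckdhb, the E1 beta subunit of the branched-chain keto acid dehydrogenase, which fell from 56.0 to 40.7 cpm (log2 fold change -0.46, SE 0.078, edgeR adjusted p = 0.0086). Its groups did not overlap, a pattern of lower values found in 0.802% of tested genes. The edgeR adjusted p of Bckdhb was 0.0435 with a covariate of sex-linked expression and 0.0481 without cmGch1 KO replicates 2 and 3. The other subunits of the branched-chain keto acid dehydrogenase were Bckdha (-0.39), Dbt (-0.35) and the shared E3 subunit Dld (-0.07), with edgeR adjusted p of 0.0795, 0.123 and 0.69. The thiolase Acat1 had the highest cpm of the list, which is not a rank of transcript levels because cpm are not divided by length (713 and 593 cpm, -0.27, edgeR adjusted p = 0.191). Hibadh, of valine breakdown, had -0.21 and Acadsb, of isoleucine breakdown, -0.16 (edgeR adjusted p = 0.269 and 0.327).

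Lists around the pathway also had medians below 0. Among enzymes that make or remove succinyl-CoA, 6 of 7 were below 0, 5 of them at an unadjusted p under 0.05, with a median of -0.14: Oxct1, of ketone body use (-0.20), Ogdh (-0.20), Suclg1 (-0.19), Suclg2 (-0.14) and Dlst (-0.13). Oxct1 and Dlst had no overlap between groups, as had 0.802% of all tested genes with lower values. Ogdh, with the highest cpm of its list, had 2311 and 2013 cpm (edgeR adjusted p from 0.117 to 0.317 for the 5). Of the biotin proteins and other carboxylases, 7 of 8 were below 0, 3 of them at an unadjusted p under 0.05, with a median of -0.13: Mccc2, a subunit of methylcrotonyl-CoA carboxylase that did not overlap between groups (-0.25, edgeR adjusted p = 0.0744), Acacb, with the highest cpm of its list (-0.31, 0.274), and pyruvate carboxylase Pc (-0.17, 0.346).

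Of 6 tested genes on side routes of propionyl-CoA, 5 were below 0, 3 of them at an unadjusted p under 0.05, with a median of -0.19. These were Acss1 (-0.27), the translocase Slc25a20 (-0.22) and Crat, which also forms propionylcarnitine and had the highest cpm of its list (557 and 487 cpm, -0.19), with edgeR adjusted p of 0.19, 0.428 and 0.191. Acss1, and Acacb of the biotin list, also belong to the study's list of fatty acid metabolism genes chosen on these samples, so their direction is not independent of it. The propionyl-CoA synthetase Acss3 was too low to test, at 0.931 and 1.10 cpm. Of 10 genes of cobalamin supply and use, 0 had an unadjusted p under 0.05, with log2 fold changes from -0.20 to 0.21 and a median of -0.03 that became 0.04 under scaling by total counts alone. Methionine synthase Mtr, the other enzyme that uses cobalamin and the gene of this list with the highest cpm, had -0.04 (95% interval -0.35 to 0.27).

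Over the 5 lists, 37 of 44 tested genes were below 0, 17 of them at an unadjusted p under 0.05, 0 were above 0 at that threshold, and 1 was called lower. The shares of all tested genes were 53.3%, 4.51%, 7.01% and 0.445% in the same order. Without cmGch1 KO replicates 2 and 3, 39 of these genes were below 0, 9 of them at an unadjusted p under 0.05. With a covariate of sex-linked expression 39 were below 0, 10 of them at that threshold. Under scaling by total counts alone 30 were below 0, 6 of them at that threshold, with 2 higher at it. The median over all tested genes was 0.002 without cmGch1 KO replicates 2 and 3, -0.001 with the covariate and 0.07 under that scaling. The lower cardiomyocyte marker sum in cmGch1 KO libraries stands beside all of these lists, and its part was not tested.

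**Figure D5:**
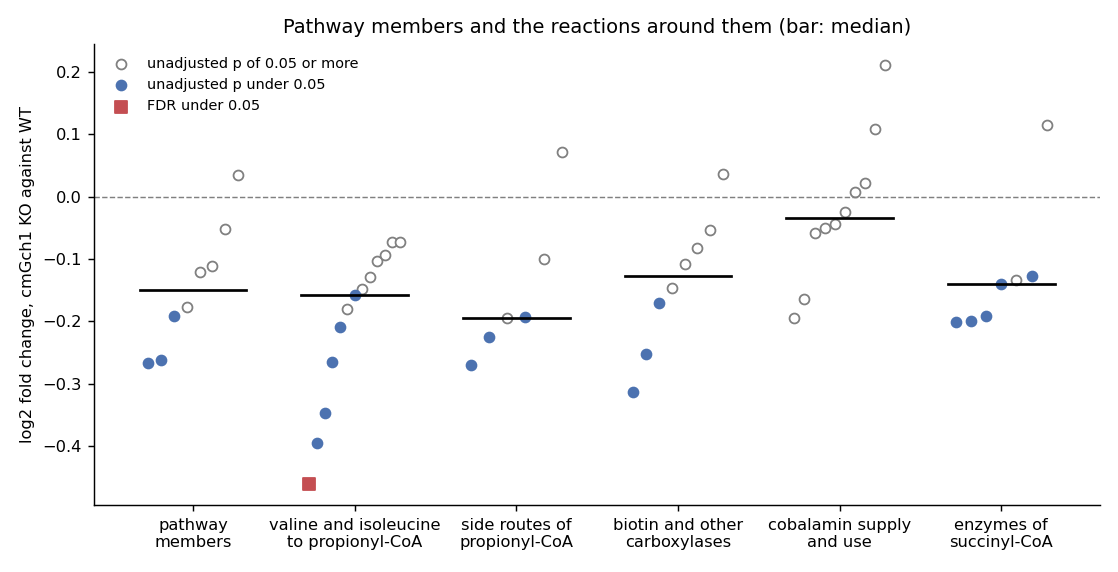
Log2 fold change between genotypes, cmGch1 KO relative to WT (y axis), for the 8 members and for the tested genes of 5 lists around the pathway, with bars at the medians, filled blue points for an unadjusted p under 0.05 and a red square for the gene with an FDR under 0.05. Bckdhb, at -0.46, is the only called gene, and the cobalamin list has its median nearest 0, at -0.03.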

How the data were processed

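Stranded libraries (dUTP) were sequenced from both ends by the authors, whose methods name HISAT2, Picard and featureCounts for the counts. The submitters' processing notes also name SAMtools and GRCm38, while versions, the annotation and the strand setting are not given in the sources used here. The authors deposited raw counts per Ensembl gene, used for all main results, and normalized values on a log2 scale made with a tool that is not named, used as an alternative. Groups came from the genotype labels, with 6 libraries each at 16 weeks. Symbols, lengths and coordinates came from GENCODE M21 (GRCm38), which holds 26545 (98.6%) of the 26921 identifiers and writes Mmut as Mut.

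Counts were tested in R 4.3.3 with edgeR 4.0.16 (TMM factors, cpm over 3 in at least 6 libraries, or in as many as the smaller group held when libraries were left out, quasi-likelihood test, Benjamini-Hochberg adjustment over 11225 genes, FDR 0.05). Single values were tested by exact permutation over 924 splits, two-sided. Correlations used log2 cpm with a prior count of 2. DESeq2 1.42.0, sva 3.50.0 and limma 3.58.1 served alternatives, and the fits were tested on simulated data. A count of 0 allows up to 3 counts, at most 0.151 cpm, for counting error only.

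Named genes are the members, Gch1, genes of the 5 lists with an unadjusted p under 0.05 or the highest mean of their list, Hcfc1, Thap11, Zfp143, Dld and Acss3 (chosen after their values were seen), Ggact, genes that start within 1000 bases head to head with a member, the 3 genes most alike to Pcca, Pccb and Mmut, and Xist. Members, lists and tests were chosen with earlier results of these data known. Promoter sequences are RefSeq's (GRCm38.p6).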

Additional observations from a re-analysis of the deposited data

Results flagged for a closer look

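Among 56 groups of 6 values examined, 5 held a library whose gap to its nearest neighbour, divided by the range of the group, exceeded Dixon's 95% critical value, and chance flags about 1 group in 20. In cmGch1 KO replicate 1, Pccb was at 127 cpm beside 104 to 112 cpm in the other cmGch1 KO libraries. The same library had the lowest log2 ratio of Mmachc to Mmadhc, -0.95 beside -0.79 to -0.70, and the highest Mphosph10, 19.8 cpm beside 17.4 to 18.1 cpm. Its erythroid marker sum was 825 cpm beside 387 to 513 cpm in the other cmGch1 KO libraries. In WT replicate 2, Gm13483, which starts 9 bases from Mmadhc on the opposite strand, was at 0.724 cpm beside 0.25 to 0.407 cpm in the other WT libraries, and it was too low to be tested.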

How the results depend on the processing

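Under 22 other settings, 0 members were called higher, and Pcca, Pccb, Mcee, Mmut, Mmab and Mmadhc stayed below 0. Members called lower numbered 2 by DESeq2's Wald test (Pcca and Pccb), 3 with 1 surrogate variable (Pcca, Pccb and Mmadhc), 1 with the replicate number as a block (Pccb, edgeR adjusted p = 0.0457) and 0 to 1 when each library was left out, against 0. Genes called lower and higher were 50 and 76. They were 36 and 116 under scaling by total counts alone (23.7% of calls lower against 39.7%), which shifted the median of all genes by 0.075, 155 and 218 by DESeq2, 76 and 112 with the block, 23 and 36 with a sex-linked covariate, 337 and 302 with the surrogate variable, 18 and 20 without cmGch1 KO replicates 2 and 3, and 31 to 98 and 43 to 118 with each library left out (98 and 118 without cmGch1 KO replicate 1). The cause was not tested. The labels link same-numbered libraries by the number alone, and whether these were paired is not given. Their deviations correlated at -0.13 to 0.68, over 0.1 in 3 of 6 pairs, and 5 of 12 correlated best with their own number. Mmaa turned to 0.025 under scaling by total counts alone, and Mmachc to -0.0091 with the sex-linked covariate and to -0.0060 without cmGch1 KO replicates 2 and 3. Without these replicates the difference in log2 ratio was 0.14 for Mmut/Pcca and 0.20 for Mmachc/Mmadhc, both with p over 0.05, and -0.0043 for Mmaa/Mmut, and relative to cardiomyocyte markers, added after seeing the data, Mcee turned to -0.021 and Mmadhc to -0.036. With each library left out the ratios ran from -0.019 to 0.052 (Pcca/Pccb), 0.12 to 0.20 (Mmut/Pcca), 0.10 to 0.21 (Mmut/Pccb), -0.0030 to 0.13 (Mmaa/Mmut), -0.13 to -0.041 (Mmab/Mmut) and 0.16 to 0.25 (Mmachc/Mmadhc). With 6 libraries a group the 95% intervals of Mcee and Mmaa span changes as large as -0.48 and -0.24.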
